A study of Mus musculus with 663 samples.

Results

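Cholesterol synthesis was followed through 26 genes, taken by name from the 43320 gene rows used. They were 20 enzymes of mevalonate, isoprenoid and sterol steps and 6 genes that regulate the route or carry sterols. Every one of the 26 names was present in the table and reached a mean of 1 RPKM in 1 or more captures, the filter for tests, as did 19710 genes in all. RPKM is reads per kilobase of gene, scaled to the size of the library, so levels can be compared between genes. The members were chosen by gene name, not by a threshold on these values.

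The values came from 662 single cells of the mouse gonad, sorted for the eGFP of an NR5A1-eGFP reporter. Nr5a1 is the gene of a nuclear receptor needed for gonad formation. All gonads were labelled XX, on a mixed strain background, and all animals carried the NR5A1-eGFP transgene. The labels give no treatment and no animal without the reporter, so stages are compared with one another. Cells were captured on chips, and the capture is the replicate: 1 capture at E10.5 (E for embryonic day, 71 cells), 2 at E11.5 (106 cells), 3 at E12.5 (53, 53 and 57 cells), 2 at E13.5 (106 cells), 2 at E16.5 (95 cells) and 2 at P6 (postnatal day 6, 121 cells). Whether captures of the same stage hold different litters is not in the labels. The p-values therefore rest on how much captures vary, which can be technical variation alone. Cells without eGFP were sorted away and not measured. Every capture held the reporter (633 to 6596 RPKM of eGFP) and Nr5a1 itself (13.9 to 72.8 RPKM).

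Cells make cholesterol from acetyl-CoA by way of mevalonate, isoprenoid units, squalene and lanosterol. The transcription factor SREBP2 switches on most genes of this route when sterols are low. SCAP escorts SREBP to the Golgi for cleavage, and the INSIG proteins hold both in the endoplasmic reticulum when sterols are plentiful. In the ovary, cholesterol is a membrane component of every cell and the precursor of steroid hormones in steroidogenic cells.

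Promoter windows were compared with motif letters because the members moved together to different degrees within cells. RefSeq's table for GRCm38.p6 gave windows, from 250 bases before to 50 after a start, for 22 of the 26 members. Fdps, Fdft1, Sqle and Stard4 had no entry. The windows below end at the base before the start and run 5′ to 3′. Capitals mark a sterol regulatory element (TCACNCCAC) or a CCAAT box (CCAAT), each searched on both strands, so ATTGG marks a CCAAT box on the other strand. Hmgcs1, Insig1 and Msmo1 are shown as the members most closely tied to the rest in single cells, Insig2 and Lbr as members with almost no such tie once the number of detected genes is partialled out, and Tm7sf2 as the second sterol C14 reductase beside Lbr.
Hmgcs1: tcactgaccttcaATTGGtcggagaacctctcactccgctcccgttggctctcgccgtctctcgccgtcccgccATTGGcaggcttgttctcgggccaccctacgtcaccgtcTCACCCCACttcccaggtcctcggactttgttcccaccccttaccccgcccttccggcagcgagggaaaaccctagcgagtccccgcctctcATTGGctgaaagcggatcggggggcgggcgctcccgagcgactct
Insig1: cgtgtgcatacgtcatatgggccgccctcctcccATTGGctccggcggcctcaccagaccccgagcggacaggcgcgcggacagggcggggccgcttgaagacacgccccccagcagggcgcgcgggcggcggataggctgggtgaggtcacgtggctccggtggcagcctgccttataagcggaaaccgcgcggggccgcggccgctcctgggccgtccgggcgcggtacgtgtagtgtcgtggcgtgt
Msmo1: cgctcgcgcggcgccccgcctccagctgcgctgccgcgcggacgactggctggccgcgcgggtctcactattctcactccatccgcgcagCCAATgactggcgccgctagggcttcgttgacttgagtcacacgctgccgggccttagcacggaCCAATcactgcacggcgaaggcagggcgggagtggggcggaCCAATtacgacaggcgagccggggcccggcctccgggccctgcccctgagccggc
Insig2: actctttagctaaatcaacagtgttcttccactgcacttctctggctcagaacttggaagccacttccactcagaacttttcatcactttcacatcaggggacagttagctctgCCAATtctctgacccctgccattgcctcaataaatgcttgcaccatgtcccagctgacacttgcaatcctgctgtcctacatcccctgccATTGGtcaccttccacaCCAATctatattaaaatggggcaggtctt
Lbr: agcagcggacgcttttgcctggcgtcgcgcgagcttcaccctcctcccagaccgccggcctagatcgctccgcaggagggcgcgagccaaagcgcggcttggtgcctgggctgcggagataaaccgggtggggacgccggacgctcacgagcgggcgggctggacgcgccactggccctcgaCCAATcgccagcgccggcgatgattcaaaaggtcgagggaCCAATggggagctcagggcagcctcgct
Tm7sf2: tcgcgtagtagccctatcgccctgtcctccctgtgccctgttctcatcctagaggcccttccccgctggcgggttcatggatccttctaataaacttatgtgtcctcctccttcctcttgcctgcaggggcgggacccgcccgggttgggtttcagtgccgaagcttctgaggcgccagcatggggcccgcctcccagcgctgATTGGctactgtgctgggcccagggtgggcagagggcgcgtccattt

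In GRCm38.p6 the windows are those of Hmgcs1 at chr13:119690101-119690350 on the plus strand, Insig1 at chr5:28071162-28071411 on the plus strand and Msmo1 at chr8:64733579-64733828 on the minus strand. The others are those of Insig2 at chr1:121332590-121332839 on the minus strand, Lbr at chr1:181842402-181842651 on the minus strand and Tm7sf2 at chr19:6067851-6068100 on the minus strand. The Insig2 window shown is 1 of its 3 in the table.

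Of the 22 matched members, the sterol regulatory element letters occurred in Hmgcs1 alone, as TCACCCCAC. The same letters occurred in the windows of 1.44% of all 27025 genes with an entry and of 1.46% of the 10924 tested genes with an entry. CCAAT boxes were found in 20 of 22 members, against 42.5% of tested genes. GC boxes (GGGCGG, either strand) were also found in 20 of 22 members, against 65.5% of tested genes. A match is a string of letters and not a measured binding site, and the absence of a match concerns these windows only. Insig2 and Lbr, whose levels went with the other members least once the number of detected genes was partialled out, held CCAAT boxes too.

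Depth and identity of the captures bear on the members in the following ways. The median cell had an estimated read count (in units of 1000000) of 1.88 to 3.2 in 11 captures, and 2927 to 6342 genes at 1 RPKM or more over all 12. The second E12.5 capture had 0.146 in the same units, and 40 of its 53 cells held Y-linked transcripts (75.5%, exact 95% binomial interval 61.7 to 86.2, counting error only) although it is labelled XX. In every other capture 0 or 1 cell did. Stage tests that name a member at E12.5 are therefore also given without it. So are the ranges of Sc5d and Lbr and the leading coexpression values before detected genes are partialled out. Other ranges set by that capture, values with detected genes partialled out and pair correlations are given with it only. Members at 1 RPKM or more per cell numbered a median of 15 at E10.5, and 4 in the second P6 capture, where the median cell also had the fewest genes. Fewer members per cell moved with fewer detected genes per cell, and the part of the latter in the former was not tested.

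Hmgcs1, which encodes the cytosolic HMG-CoA synthase at the head of the mevalonate route, was the most abundant member in 11 of 12 captures. In the first P6 capture Lbr, at 53.5 RPKM, lay above it. The capture means of Hmgcs1 were 175 RPKM in the E10.5 capture, 183 and 170 RPKM at E11.5, 134.4, 67.1 and 153.8 RPKM at E12.5, 239 and 131.6 RPKM at E13.5, 229 and 198 RPKM at E16.5, and 49.4 and 127.96 RPKM at P6. The gene alone made up between 12.2% and 41.5% of the summed RPKM of all members in a capture. The low captures were the first of P6 and the shallow second of E12.5, and the P6 captures did not overlap those of E16.5. The share of cells at 1 RPKM or more was 92.96% at E10.5 and 46.5% ± 3.64 at P6 (SD, n = 2 captures).

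Averaged over stages with equal weight, the next members in order were Lbr at 53.3 RPKM, Sc5d at 35.95 RPKM, Acat2 at 34.8 RPKM and Fdps at 32.5 RPKM. Lbr encodes the lamin B receptor, an inner nuclear membrane protein that is also a sterol C14 reductase. Sc5d encodes sterol C5 desaturase, a late step. The lowest were Srebf2 (3.43 RPKM), Idi1 (2.68 RPKM), Stard4 (2.09 RPKM) and Lss (1.91 RPKM), the last of which encodes lanosterol synthase. Neighbours in this order mostly lay within the spread of captures: Sc5d ranged from 8.49 to 67.1 RPKM, and Acat2 from 9.08 to 61.9 RPKM. The 8.49 RPKM of Sc5d came from the second E12.5 capture, and its next lowest capture was at 21.6 RPKM. Without that capture the 5 highest members kept their order. At the low end Srebf2 (3.78 RPKM) then lay above Srebf1 (3.71 RPKM), and Stard4 (2.01 RPKM) below Lss (2.05 RPKM).

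Low members rested on few cells. For Srebf1, the gene of SREBP1, the 5% of cells with the highest values held 90.1% of its summed RPKM, against 27.9% for Hmgcs1. Its mean in the second E16.5 capture, 21.8 RPKM, compared with at most 4.53 RPKM in the other captures, and 7.5% of its cells reached 1 RPKM. Insig1, at a mean level of 23.3 RPKM, was at 1 RPKM or more in 66.6% of cells on average over captures, behind Hmgcs1 alone (73.1%).

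**Figure D1:**
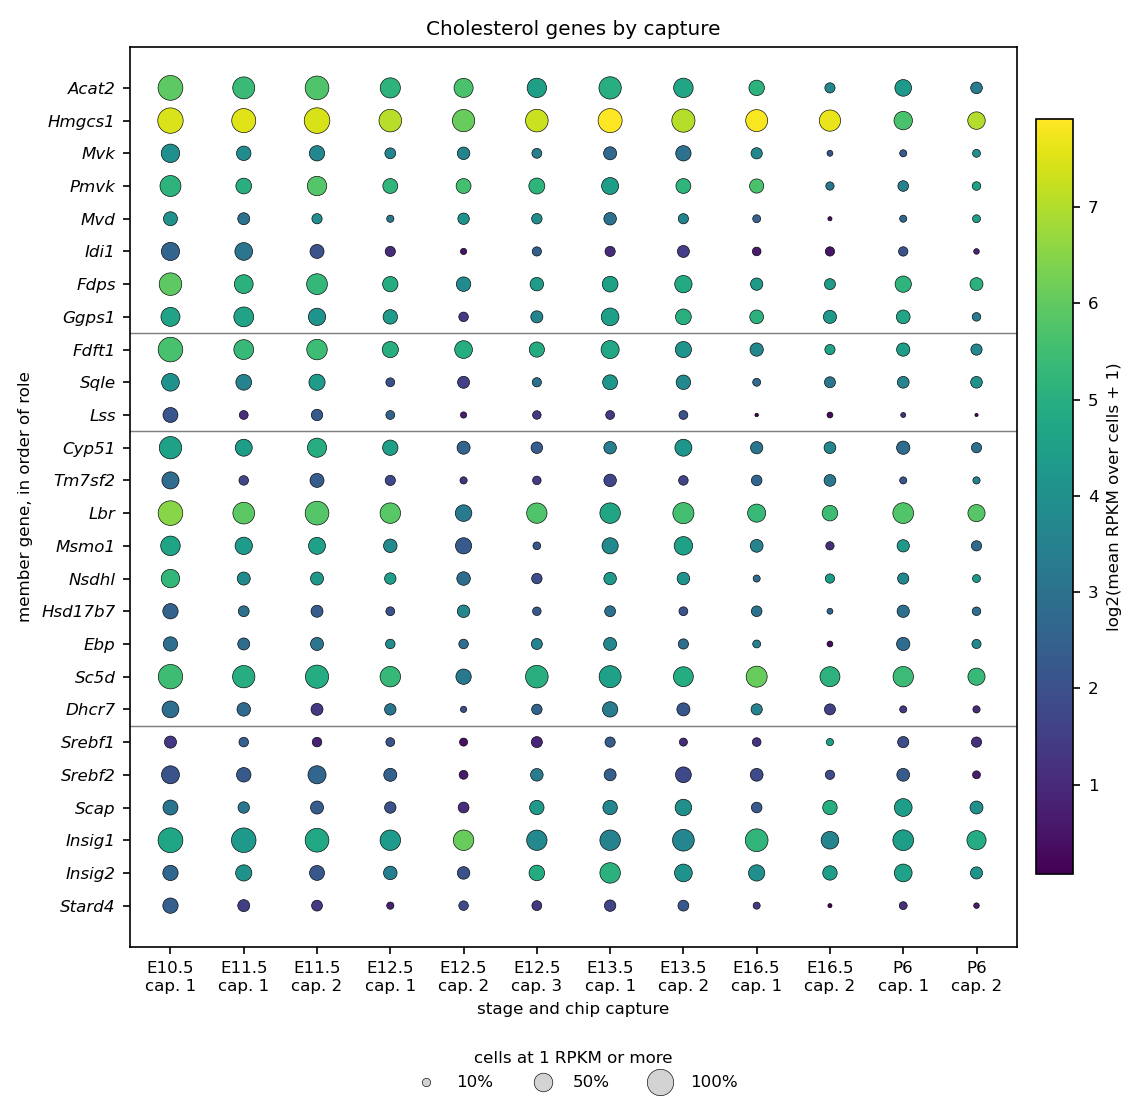
Each circle is 1 member gene (rows, in order of role, with lines between roles) in 1 chip capture (columns). Colour gives log2(mean RPKM over cells + 1) and circle area the share of cells at 1 RPKM or more. Hmgcs1 is the brightest row, and circles are largest at E10.5, where the median cell held 15 members.

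Near-identical copies and overlapping genes limit several members, since how reads that match more than 1 gene were counted, and whether strand was used, is not stated by the labels or the table. Gm13502, a processed pseudogene, is 100% identical to Idi1 over 684 bases. Its mean over captures, 14.6 RPKM, lay above the 2.43 RPKM of Idi1, which encodes isopentenyl-diphosphate isomerase. Idi1 levels are therefore uncertain. Gm3571, a pseudogene 98.9% identical over 1062 bases to Fdps, the farnesyl diphosphate synthase gene, stood at 8.42 RPKM against 29.1 RPKM for Fdps. Acat2, an acetyl-CoA acetyltransferase gene, is 97.7% identical over 1477 bases to Acat3, which stood at 20.5 RPKM against 32.6 RPKM. It is also 98.7% identical over 445 bases to Tcp1, which stood at 93.5 RPKM. Exons of Fdft1, the squalene synthase gene, share 774 bases with Ctsb on the opposite strand, so reads of the pair cannot be told apart there. Exons of Tm7sf2 share 532 bases with Vps51 on the same strand.

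Of the 26 members, 12 had their highest stage mean at E10.5, where 17.1% of the 19710 tested genes did. The single capture there gives no spread between replicates. The nephric genes Lhx1, Sall1 and Pax2 fell from E10.5 to E11.5 (log2 changes of -4.93, -4.72 and -1.82, limma, adjusted p = 0.00179, 0.0372 and 0.0453), and the part of such cells in the E10.5 levels was not tested. The E10.5 level of Acat2 was 61.9 RPKM. Later levels were 47.04 ± 8.85 RPKM at E11.5, 35.1 ± 14.4 RPKM at E12.5 (n = 3, or 27.8 ± 9.53 without the second capture), 27.7 ± 3.96 at E13.5, 23 ± 15 at E16.5 and 14.05 ± 7.02 RPKM at P6 (SD, n = 2 captures where not stated). Fdft1 ran from 48.3 RPKM in the E10.5 capture and 41.2 ± 1.86 RPKM at E11.5 over 29.5 ± 1.55 at E12.5 (n = 3, or 29.6 ± 2.17 without the second capture) to 16.1 ± 5.93 RPKM at P6. For both genes the mean was lower at each successive stage. From E12.5 on, captures of neighbouring stages overlapped for Acat2. E11.5 and E12.5 overlapped through the second E12.5 capture (49.8 RPKM) alone, and without it both E12.5 captures lay below E11.5. No step between neighbouring stages passed the test below for either gene. The copy Acat3 went from 33.01 RPKM at E10.5 to 8.63 and 13.8 RPKM at P6.

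The comparison of stages asked which steps of the route changed between consecutive ages. limma, fitted to log2(capture mean RPKM + 1) with stage and sequencing series over all 12 captures, called 0 of 26 members at a Benjamini-Hochberg adjusted p under 0.05 in any of 6 stage comparisons or in the overall F test. The share of all 19710 genes called was 0.969% from E10.5 to E11.5, 0% from E11.5 to E12.5, 0% from E12.5 to E13.5, 0.528% from E13.5 to E16.5, 0.289% from E16.5 to P6, 0% from E11.5 to E13.5 and 1.37% in the F test. At an unadjusted p under 0.05, the 5 consecutive comparisons held 0, 2, 3, 2 and 2 members, the comparison of E11.5 with E13.5 held 0, and the F test held 1. Of all genes, 5.02% to 11.7% lay at that level in these comparisons. With 5 residual degrees of freedom, an adjusted p over the threshold does not show equal levels.

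Sqle, the gene of squalene epoxidase, an oxygen-dependent step that controls flux, was the member with the lowest p. Its capture means were 15.3 RPKM in the E10.5 capture, 10.7 and 19.2 RPKM at E11.5, 3.09, 1.97 and 6.69 RPKM at E12.5, 17.3 and 12.47 RPKM at E13.5, 5.79 and 8.12 RPKM at E16.5, and 11.2 and 14.9 RPKM at P6. All 3 captures of E12.5 lay below all captures of E11.5 and E13.5, and the captures of E16.5 lay below those of E13.5 and P6. In limma the log2 change was -2.14 ± 0.44 (SE) from E11.5 to E12.5 (adjusted p = 0.349), 2.17 ± 0.44 from E12.5 to E13.5 (adjusted p = 0.329) and -2.14 ± 0.69 from E13.5 to E16.5 (adjusted p = 0.465). None passed, nor did the F test (unadjusted p = 0.00799, adjusted p = 0.174). Fitted on 11 captures, with the second of E12.5 left out, the log2 changes to and from that stage were -1.91 and 1.94 (limma, adjusted p = 0.274 and 0.289). Since E12.5 alone joins both sequencing series, its fitted level rests on its first and second captures, and the step from E13.5 to E16.5 crosses series.

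Left out of the fit, the first E12.5 capture changed the calls. Without it limma called 3 members from E11.5 to E12.5: Fdps (log2 change -1.36, adjusted p = 0.0256), Lbr (-2.59, adjusted p = 0.0160) and Sqle (-2.37, adjusted p = 0.0435). From E12.5 to E13.5 it called Ggps1 (3.33, adjusted p = 0.0442), Lbr (1.84, adjusted p = 0.0417) and Sqle (2.40, adjusted p = 0.0414). In that fit the E12.5 level is that of the shallow second capture alone, and 1612 and 1624 genes were called (8.18% and 8.24% of 19710). Without the second capture in its place, 0 members were called in any stage comparison, beside 220 genes from E11.5 to E12.5, 204 from E12.5 to E13.5 and 835 in the F test. On the mean over cells of log2(RPKM + 1), limma called Nsdhl from E10.5 to E11.5 (-1.56, adjusted p = 0.0258, with 445 genes called), where the log2 change of the capture means was -1.19 ± 0.85 (SE).

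From E16.5 to P6 the member with the lowest p in the route before squalene was Hmgcs1, with a log2 change of -1.41 ± 0.54 (SE), an unadjusted p of 0.0349 and an adjusted p of 0.499 in limma. Mvd, the mevalonate diphosphate decarboxylase gene, had 2.10 ± 0.87 (adjusted p = 0.543). Its captures were 4.51 and 0.308 RPKM at E16.5 and 5.24 and 20.2 RPKM at P6, and at most 9.09% of cells in any of them reached 1 RPKM. Of the 8 members up to the isoprenoids, 4 had a higher and 4 a lower estimate at P6. Of the 9 members from lanosterol to cholesterol, 5 had a higher and 4 a lower one. The median log2 change of all 26 members was 0.18, beside 0.00 for all genes.

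Regulators had no call at any stage. Insig2 stood at 5.15 RPKM in the E10.5 capture, 15.3 and 3.60 RPKM at E11.5, 9.55, 3.07 and 28.3 RPKM at E12.5, 32.97 and 15.7 RPKM at E13.5, 14.6 and 20.3 RPKM at E16.5, and 22.9 and 16.4 RPKM at P6. Captures of E11.5 and E12.5 overlapped, while those of E13.5 and later all lay at or above 14.6 RPKM. Scap stood at 7.63 ± 9.59 RPKM at E12.5 (SD, n = 3, or 10.9 ± 10.98 without the second capture) and 13.3 ± 2.14 RPKM at E13.5 (n = 2), with a log2 change of 2.26 ± 0.86 (SE) in limma (adjusted p = 0.583). Fitted on the same 11 captures, that change was 1.79 (limma, adjusted p = 0.875).

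The comparison of classes asked whether cells of the supporting lineage, marked by Foxl2, differ in the route from cells marked by Nr2f2, which is expressed by progenitors and stroma. Foxl2-positive cells had Foxl2 at 1 RPKM or more, and Nr2f2-positive cells had Nr2f2 at 1 RPKM or more and Foxl2 below it. The comparison was made within a capture, in the 8 captures with at least 5 cells of each class, from E12.5 to P6. These had 7 to 41 Foxl2-positive and 16 to 50 Nr2f2-positive cells, and the second E12.5 capture was not among them. Most Foxl2-positive cells also held Nr2f2, from 6 of 12 in the first E16.5 capture to 7 of 7 in the third E12.5 capture, so the classes are marker classes and not pure lineages.

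Marker lists showed how far the classes stood apart. The 10 pregranulosa markers summed to 292 to 574 RPKM in Foxl2-positive and to 87.6 to 234 RPKM in Nr2f2-positive cells. They include Foxl2, which defines the classes and stood at 20.2 to 46.4 RPKM in Foxl2-positive cells. The Foxl2 part of this gap was therefore set by the class definition. The 10 stromal markers summed to 58.4 to 2161 RPKM in Foxl2-positive and to 463 to 2747 RPKM in Nr2f2-positive cells, so stromal RNA was present in both. In the second P6 capture Dcn, a stromal proteoglycan gene, stood at 1134 RPKM in Foxl2-positive and at 970.3 RPKM in Nr2f2-positive cells. The 6 steroidogenic markers summed to at most 1435 RPKM in Foxl2-positive and 224 RPKM in Nr2f2-positive cells, with Insl3 at 0 in both. Their median sum over captures went the other way, at 36.3 RPKM in Foxl2-positive and 65.5 RPKM in Nr2f2-positive cells. The lowest sums were 0.0098 and 15.9 RPKM in the same order. Endothelial markers summed to at most 30.4 RPKM, blood and immune markers to at most 14.4 RPKM, germ cell markers to at most 37.4 RPKM and nephric markers to at most 24.2 RPKM, with Pou5f1 and Dppa5a at 0 in both classes. The median Foxl2-positive cell had more detected genes than the median Nr2f2-positive cell in all 8 captures, for example 4329 against 3364 in the second E16.5 capture. The part of these differences in the results below was not tested.

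Hmgcs1 was higher in Foxl2-positive cells in 6 of 8 captures. In Foxl2-positive and then Nr2f2-positive cells it stood at 299 and 105.2 RPKM in the first E12.5 capture and at 120.6 and 158.5 RPKM in the third. At E13.5 the pairs were 329 and 194 RPKM, and 208 and 91.6 RPKM. At E16.5 they were 483 and 105.9 RPKM, and 332 and 141.3 RPKM, and at P6 they were 45.8 and 71.2 RPKM, and 174 and 60.2 RPKM. Both captures of E13.5 and both of E16.5 were higher in Foxl2-positive cells, while those of E12.5 and P6 went both ways. Over the 8 captures 84.7% ± 20.6 of Foxl2-positive and 60.4% ± 13.8 of Nr2f2-positive cells (SD) were at 1 RPKM or more. The mean log2 difference was 0.92 ± 0.28 (SE), with an unadjusted p of 0.00982 and an adjusted p of 0.350 in limma, so it did not pass. On the mean over cells of log2(RPKM + 1), which weights how many cells hold the transcript, the difference was 2.11 and passed (limma, adjusted p = 0.00737, in a setting that called 0.704% of genes).

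Fdft1, again in Foxl2-positive and then Nr2f2-positive cells, was higher in the former in 7 of 8 captures. The values were 41.8 and 29.2 RPKM, and 44.2 and 25.8 RPKM at E12.5, 39.3 and 19.1 RPKM, and 14.1 and 18.2 RPKM at E13.5, 36.1 and 6.12 RPKM, and 80.5 and 1.43 RPKM at E16.5, and 22.3 and 15.5 RPKM, and 17.4 and 3.21 RPKM at P6. The second E13.5 capture alone went the other way. Few cells held it: the Foxl2-positive level rested on 1 of 8 cells in the first E12.5 capture and on 18.2% of 11 cells in the second E16.5 capture. The share of cells with Fdft1 was lower in Foxl2-positive cells in both E12.5 captures and in the first E16.5 capture. The mean log2 difference was 1.498 ± 0.39 (SE), with an unadjusted p of 0.00390 and an adjusted p of 0.309 in limma. Ctsb, which shares exon bases with Fdft1, was also higher in Foxl2-positive cells in 7 of 8 captures, by a mean log2 difference of 0.37 ± 0.51 (SD), and its part in the Fdft1 value was not tested.

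Over all members, limma called 0 of 26 in the average over stages, beside 7 of 19603 genes (0.0357%). At an unadjusted p under 0.05 there were 6 members: Fdft1, Hmgcs1 and Tm7sf2 with higher estimates in Foxl2-positive cells, and Fdps, Srebf2 and Mvk with lower ones. That is 6 of 26 beside 9.79% of all genes. Members with a lower estimate numbered 18 of 26, with a median log2 difference of -0.25 beside -0.13 for all genes. A higher estimate was seen in 8 of 26 members and in 40.2% of all 19603 genes. Srebf2, which encodes SREBP2, was lower in Foxl2-positive cells in 8 of 8 captures (1.90 ± 2.67 against 4.96 ± 2.84 RPKM, SD), as were 1.03% of tested genes. Its log2 difference was -1.21 ± 0.49 (SE, limma, adjusted p = 0.469). Fdps had a fitted difference of -0.98 ± 0.35 (SE, limma, adjusted p = 0.400), and at E12.5 it stood at 1.19 and 33.3 RPKM, and at 2.58 and 22.1 RPKM. With Foxl2-positive cells limited to those with more Foxl2 than Nr2f2, 5 captures remained, none of E12.5, and the difference was 0.54. In the same 5 captures the classes as first described gave 0.15.

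**Figure D2:**
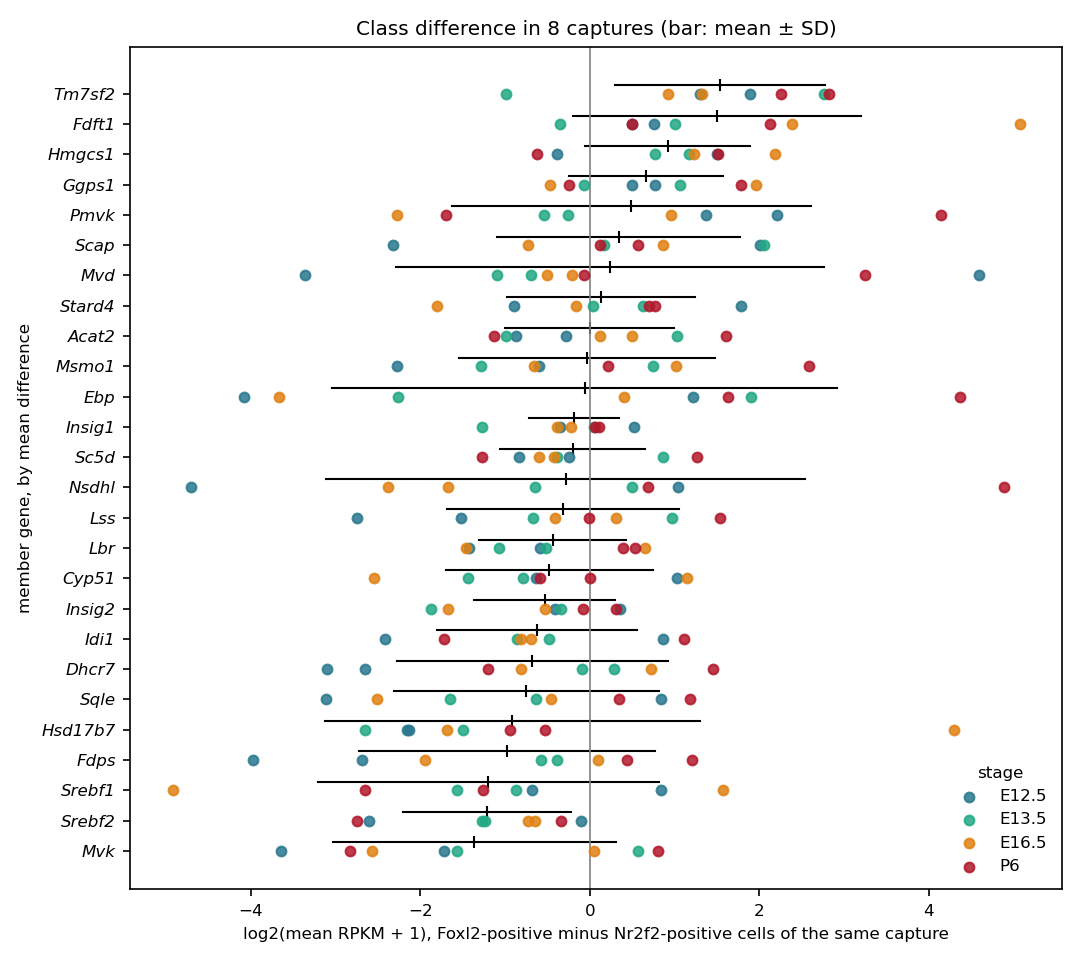
Each point is 1 capture, coloured by stage, and gives log2(mean RPKM + 1) of Foxl2-positive minus Nr2f2-positive cells for the member gene named on the left. Bars are the mean ± SD over 8 captures. Tm7sf2, Fdft1 and Hmgcs1 have the highest means, at 1.53, 1.498 and 0.92, and all 8 points of Srebf2 lie below 0.

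Next, the class difference at P6 was set against that at E16.5. limma called 0 of 26 members and 0% of 19603 genes for its change, with 1 member (Nsdhl, 4.82 ± 1.94, SE, adjusted p = 0.669) and 1395 genes at an unadjusted p under 0.05. Nsdhl, the gene of a sterol C4 decarboxylase, stood in Foxl2-positive and Nr2f2-positive cells at 0.540 and 7.01 RPKM, and at 7.48 and 26.1 RPKM at E16.5, and at 14.9 and 8.85 RPKM, and at 28.7 and 0 RPKM at P6.

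Within Foxl2-positive cells, limma called 0 of 26 members and 0% of 17229 genes from E16.5 to P6, with 5 members and 1800 genes at an unadjusted p under 0.05. Hmgcs1 had the only lower estimate of those 5, -2.15 ± 0.70 (SE, adjusted p = 0.397), and Mvd, Ebp, Idi1 and Nsdhl had higher ones. Within Nr2f2-positive cells limma called 0 of 26 members beside 0.209% of 19171 genes. At an unadjusted p under 0.05 lay 1 of 26 members, Tm7sf2 (-1.82 ± 0.76, SE, adjusted p = 0.448), beside 2090 genes (10.9%). Over all cells, 4 of 8 granulosa markers rose from E16.5 to P6, among them Amh (2.99 ± 0.27, SE, adjusted p = 0.0114) and Hsd17b1 (5.79 ± 0.58, adjusted p = 0.0202). Fewer cells of a type and less RNA per cell cannot be told apart in means over all cells of a capture.

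Lbr and Tm7sf2 encode the alternative sterol C14 reductases of the route. Lbr was the more abundant in all 12 captures, at 8.74 to 90.8 RPKM (24.7 to 90.8 RPKM without the second E12.5 capture) against 1.45 to 10.4 RPKM for Tm7sf2, which was at 1 RPKM or more in 17% of cells on average over captures. In Foxl2-positive and then Nr2f2-positive cells, Tm7sf2 stood at 7.94 and 1.41 RPKM, and 4.61 and 1.29 RPKM at E12.5, 1.06 and 3.10 RPKM, and 7.87 and 0.308 RPKM at E13.5, 7.67 and 3.58 RPKM, and 15.4 and 5.56 RPKM at E16.5, and 3.77 and 0 RPKM, and 16.1 and 1.41 RPKM at P6. It was higher in Foxl2-positive cells in 7 of 8 captures, with a fitted log2 difference of 1.53 ± 0.51 (SE, limma, adjusted p = 0.371). Lbr stood in the same order at 23.2 and 64.1 RPKM, and 36.5 and 55.5 RPKM at E12.5, 14.4 and 31.4 RPKM, and 37.9 and 54.6 RPKM at E13.5, 59.2 and 37.4 RPKM, and 19.7 and 55.8 RPKM at E16.5, and 62.9 and 43.1 RPKM, and 60.5 and 45.8 RPKM at P6. It was lower in Foxl2-positive cells at E12.5 and E13.5 and higher in both P6 captures.

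The balance of the reductases, log2((Lbr + 1)/(Tm7sf2 + 1)), was 2.24 ± 1.05 in Foxl2-positive and 4.21 ± 1.03 in Nr2f2-positive cells (SD, n = 8 captures). It was lower in Foxl2-positive cells in 8 of 8 captures, with a mean difference of -1.97 ± 1.25 (SD). This difference passed an exact two-sided sign-flip permutation test (p = 0.00781, the smallest 8 captures allow, adjusted p = 0.0234 over 3 pairs of related members). Since all captures have 1 sign, leaving any 1 out must again give the smallest p, and the mean then ran from -2.24 to -1.78. With classes formed at 5 RPKM the difference did not pass (-1.59, adjusted p = 0.129, exact test). The Tm7sf2 side of the balance rested on few cells. It was at 1 RPKM or more in 22.6% ± 12.4 of Foxl2-positive and 9.90% ± 7.26 of Nr2f2-positive cells (SD, n = 8 captures). Over all cells, the 5% with the highest values held 82.7% of its summed RPKM. Vps51, which shares exon bases with Tm7sf2, was higher in Foxl2-positive cells in 2 of 8 captures, with a mean log2 difference of -0.43 ± 1.21 (SD). The part of Vps51 in the Tm7sf2 value was not tested.

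**Figure D3:**
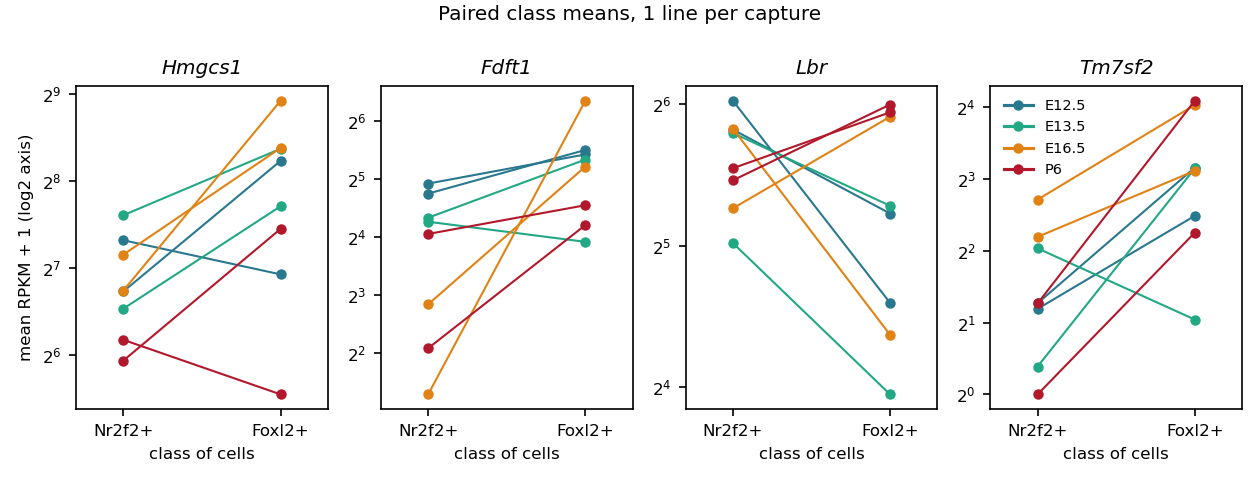
Lines join Nr2f2-positive (left) and Foxl2-positive (right) cells of 1 capture for Hmgcs1, Fdft1, Lbr and Tm7sf2, coloured by stage. The vertical axis is mean RPKM + 1 on a log2 axis. Tm7sf2 and Fdft1 rise in 7 of 8 lines each and Hmgcs1 in 6, while Lbr falls in 5.

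For the other pairs no difference passed. Insig1 and Insig2 encode the proteins that retain SCAP, and their balance was higher in Foxl2-positive cells in 6 of 8 captures, by 0.35 ± 0.88 on the log2 scale (SD, exact sign-flip permutation test, p = 0.289, adjusted p = 0.434). The balance of Srebf2 and Srebf1 differed by -0.02 ± 2.29 (SD, exact test, p = 0.984), 4 captures each way. Leaving out the first E12.5, second E13.5 or first E16.5 capture turned its sign (0.47, 0.03 and 0.31).

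Coexpression asked whether cells with more of 1 member also hold more of the rest. For each member the Spearman correlation with the mean log2(RPKM + 1) of the other 25 was taken over the cells of 1 capture and averaged over the 12 captures. Cells share chip and depth, so these values are descriptions without a p. Hmgcs1 had the highest mean, 0.422 (SD 0.120, range 0.206 to 0.654), and was above 0 in 12 of 12 captures. Without the second E12.5 capture it was 0.441, and Insig1 (0.401), Msmo1 (0.367) and Fdps (0.350) kept the next places. Over all 12 captures Insig1 followed at 0.385, Msmo1 at 0.369, Fdps at 0.354 and Sc5d at 0.319. Msmo1 encodes the sterol C4 methyl oxidase. The lowest was Insig2, at 0.0782, below Ggps1 (0.125) and Srebf1 (0.127).

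Depth entered these values, since the member mean correlated with the number of detected genes at 0.366 to 0.715 per capture. With that number partialled out, Hmgcs1 stood at 0.349, Insig1 at 0.323, Msmo1 at 0.291, Fdps at 0.227 and Sc5d at 0.216. Hmgcs1 was then above 0 in 12 of 12 captures, with its lowest value, 0.0575, in the second E12.5 capture. Lbr went to 0.00363, Ggps1, the gene of geranylgeranyl diphosphate synthase, to 0.0182, and Insig2 to -0.00511. Among 8735 other genes with a mean of at least 5 RPKM the median was 0.0119 and the 95th percentile 0.0889, and 20 of 26 members lay above that percentile. The members below it were Pmvk, Srebf1, Scap, Ggps1, Lbr and Insig2. The value of Hmgcs1 was reached by 0.0114% of the other genes, and that of Insig2 by 64.1%. The median over members was 0.219 before partialling, 0.131 after it, and 0.225 before it without the second E12.5 capture. Before partialling, the 8735 other genes had a median of 0.111 and a 95th percentile of 0.216. Of the 26 members, 13 lay above that percentile.

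**Figure D4:**
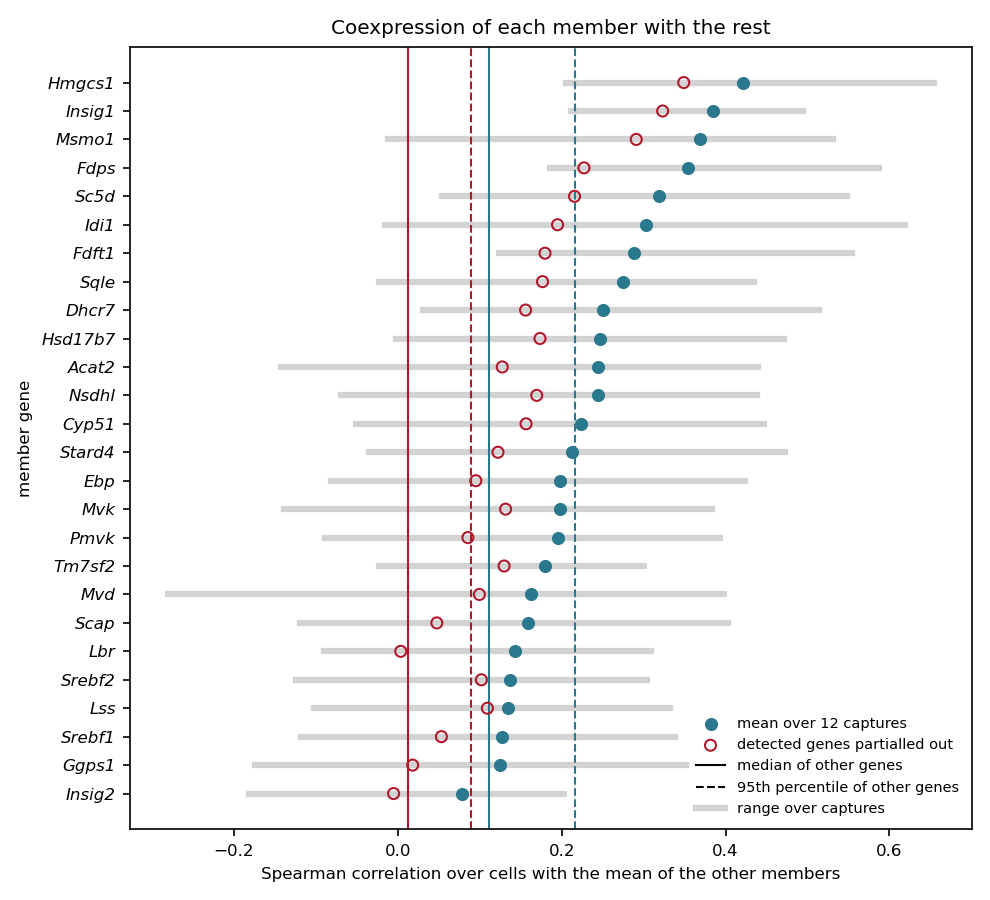
For each member gene, filled points give the mean over 12 captures of the Spearman correlation over cells with the mean of the other members, and grey bars its range over captures. Open points have the number of detected genes partialled out, and vertical lines give the median (solid) and 95th percentile (dashed) of 8735 other genes in the matching colour. Hmgcs1 and Insig1 lie highest, and Lbr and Insig2 fall to about 0 once detected genes are partialled out.

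Insig1 and Insig2, whose proteins both bind SCAP, stood at opposite ends of this order. Insig1 was above 0 in 12 of 12 captures with detected genes partialled out, and Insig2 in 6 of 12. The difference between the correlations of Insig1 and Insig2 was not tested.

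Cells of each capture were sorted by Hmgcs1 into 3 groups of like size. The sort describes the same cells as the correlations above and is not separate support for them. At P6, 28 of 55 and 37 of 66 cells were under 1 RPKM of Hmgcs1. The lowest groups there, of 18 and 22 cells, therefore did not hold all such cells. The group with most Hmgcs1 held Fdps at 1 RPKM or more in 55.4% ± 15.2 of cells and that with least in 22.5% ± 16.6 (SD, n = 12 captures), higher in 12 of 12 captures (56.4% and 23.5% without the second E12.5 capture). Sc5d was at 77.2% ± 16 and 44.2% ± 19.3, also higher in 12 of 12. Msmo1 was at 46.05% ± 23.4 and 20.4% ± 12.8, higher in 11 of 12. Lbr was at 60.3% ± 22.8 and 55.4% ± 19.3, higher in 8 of 12. On the 11 captures without the second of E12.5, Sc5d stood at 80.7% and 46.6%, Msmo1 at 44.7% and 19.5%, and Lbr at 62.2% and 57.7%. The group with most Hmgcs1 also had more detected genes in 9 of 12 captures, all but those of E10.5 and E11.5.

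Among the 325 pairs of members, the highest mean correlation was that of Hmgcs1 with Fdps, 0.308 ± 0.0885 (SD over captures), or 0.250 with detected genes partialled out, above 0 in 12 of 12 captures. Msmo1 with Sc5d (0.272), Fdps with Msmo1 (0.266), Msmo1 with Insig1 (0.262), and Hmgcs1 with Sc5d (0.261) came next. The median pair stood at 0.0909, and at 0.0496 with detected genes partialled out, when 7 pairs reached 0.2. Those 7 were Hmgcs1 with Fdps and Sc5d, Msmo1 with Sc5d, Fdps, Insig1 and Sqle, and Sc5d with Insig1.

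**Figure D5:**
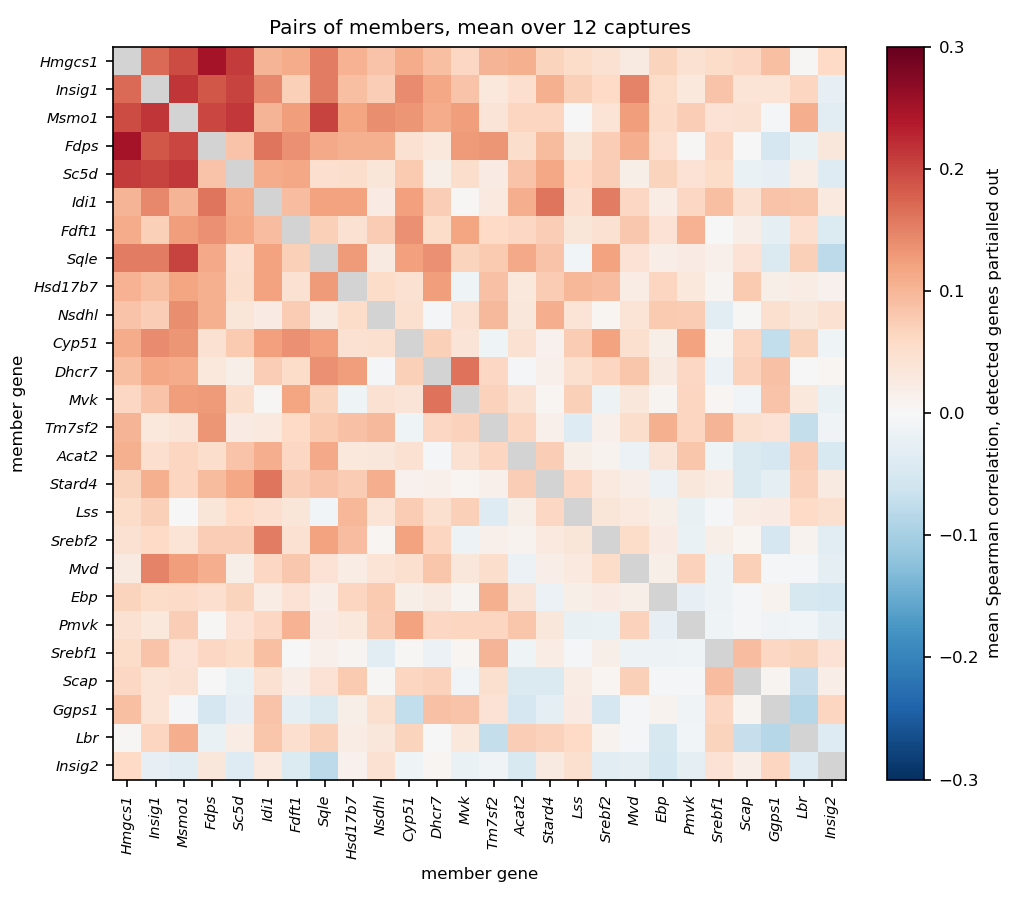
Each square is the Spearman correlation of 2 member genes over cells, with the number of detected genes partialled out and averaged over 12 captures. Genes are in order of their own correlation with the other members, depth partialled out, and the diagonal is grey. Most of the deepest red lies among Hmgcs1, Insig1, Msmo1, Fdps and Sc5d, and the Lbr row runs from -0.0861 to 0.110.

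Of the genes outside the members, the highest mean correlation was that of Gm3571 (0.468, SD 0.0927), the pseudogene copy of Fdps, whose value therefore repeats that of Fdps in part. Gm13502, the copy of Idi1, had 0.326. Gm2606 (0.360), Gm10053 (0.326), Gm10774 (0.314) and Gm10123 (0.314) are near-identical, over their whole listed length, to Gapdh, Cycs, Polr2l and Ppia, and Tmx2 (0.312) encodes a thioredoxin-related membrane protein. With detected genes partialled out, Gm3571 kept 0.364 and Gm13502 0.251, against 0.193 or less for the other 5 genes.

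Gene lists beside the members were followed in the same way. The mean of 13 other cholesterol synthesis, uptake and storage genes correlated with the member mean at 0.392 ± 0.124 (SD over captures), or 0.205 ± 0.118 with detected genes partialled out, above 0 in 12 of 12 captures. For 11 fatty acid synthesis genes the values were 0.356 and 0.138, for 8 steroid hormone synthesis genes 0.291 and 0.149, and for 12 S phase genes 0.236 and -0.0264. Efflux genes (7) stood at 0.141 and -0.0221, users of isoprenoids (10) at 0.234 and 0.0218, and G2/M phase genes (12) at 0.0972 and -0.0180. limma called 0 genes of these lists in any comparison, apart from Hsd17b1 of the steroid hormone list from E16.5 to P6 and in the F test.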

How the data were processed

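Single cells were sequenced from polyadenylated RNA on C1 chips, and the authors deposited 1 table with a value per gene and cell. The file does not name its unit. The values were read as RPKM deposited by the authors, and the submitters' processing notes name the genome builds GRCm38.p3 and mm10. Aligner, counter and strand setting were not stated in the sources. Depth per cell was estimated from the steps between low values.

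Of 663 libraries, 1 repeat of a cell was averaged with it (r 0.996). Rows with date-like names (27) were left out. Capture means were tested with limma 3.58.1 in R 4.3.3, with an intensity trend, on log2(mean RPKM + 1), with stage and sequencing series as terms, at a Benjamini-Hochberg adjusted p of 0.05. Fold changes of low genes are understated on this scale. Class differences were taken within captures (4 residual degrees of freedom), which pairs the classes by capture. Pair balances used exact sign-flip permutation tests that went through every pattern of signs. Ranks and the binomial interval came from scipy 1.17.1, and copies were found with blastn 2.17.0+. The scripts were tested on simulated data. The class definition was added after the data were seen, because the classes first set, which left out cells with both genes, kept 2 captures and could not be fitted. Members and lists were chosen with earlier results of these data known. Named genes are all members, up to 3 called genes per other list and comparison, and the 8 most coexpressed other genes, of which 1 is not reported here.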

Additional observations from a re-analysis of the deposited data

Results flagged for a closer look

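In 4 members the class difference (Foxl2-positive minus Nr2f2-positive, log2) had 1 sign in both E16.5 captures and the opposite sign in both P6 captures, as did 10.2% of all 19603 genes. The change from E16.5 to P6 was 4.82 for Nsdhl, 2.25 for Sqle, 1.71 for Stard4 and 0.39 for Insig1. None passed limma's test of the change (adjusted p = 0.669, 0.738, 0.751 and 0.994).

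Hsd17b7, a ketosteroid reductase gene of the late route, stood apart in the second E16.5 capture. Its class difference there was 4.29 (18.6 RPKM in Foxl2-positive and 0 RPKM in Nr2f2-positive cells), while the other 7 captures lay between -2.65 and -0.53. The Foxl2-positive level there rested on 18.2% of 11 cells. The threshold for such a gap is one that chance passes in about 1 in 20 groups, and 26 members were looked at.

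Cells with Y-linked transcripts made up 75.5% of the second E12.5 capture, which is labelled XX, against 0 or 1 cell in each other capture.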

How the results depend on the processing

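No member was called in 216 of 221 combinations of a comparison with an alternative setting. Several comparisons come from 1 fit and the settings share most captures, so these are not independent checks. The exceptions were 1 member from E10.5 to E11.5 and 1 in the class average on the mean over cells of log2(RPKM + 1), and 3, 3 and 2 members without the first E12.5 capture (E11.5 to E12.5, E12.5 to E13.5, F test), where leave-one-out ranges were 0 to 3, 0 to 3 and 0 to 2. In the F test without the first E12.5 capture, 7.62% of all 19710 genes were called beside those 2 members. Without the replicate block, that is with the classes not paired by capture, 0 members were called. Genes called over all settings ran from 0 to 1612 from E11.5 to E12.5, 0 to 1624 from E12.5 to E13.5, 18 to 1509 in the F test and 0 to 534 in the class average, so single calls depend on the setting. The Fdps class difference turned to 0.10 on the mean of logs, 0.54 with Foxl2 above Nr2f2 (in 5 captures, none of E12.5, where the main classes gave 0.15) and 0.34 at a class threshold above 0. The Lbr and Tm7sf2 balance was -1.59 at 5 RPKM (exact test, p = 0.0547). The Srebf2 and Srebf1 balance turned to 0.0926 at a pseudocount of 0.1, and to 0.4745, 0.0344 and 0.3111 without the first E12.5, second E13.5 and first E16.5 capture, with a leave-one-out range of -0.6279 to 0.4745. Median coexpression moved to 0.131 with detected genes partialled out. The cause was not tested. The classes first set could not be fitted.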
